A study of Mus musculus with 2 samples.

Results

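The genes described are 43 of the 16263 in both deposited tables: 20 aminoacyl-tRNA synthetases of the cytosol, 15 of mitochondria, 6 enzymes of asparagine, serine and glycine synthesis and their one-carbon branch, and the stress-induced genes Chac1 and Trib3. They were taken by symbol, in the older style of names (Aars, Lars), with a final 2 marking a mitochondrial enzyme, and every name on the list was found. The members are a gene family and its pathway, but the group was selected on the ratio between the 2 libraries, led by Lars, Aars and Asns, so all ratios are descriptions of these data and none is a test.

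The WT library came from wild-type mice and the SIRPα-KO library from SIRPalpha-/- mice, both C57BL/6, and the labels give neither the age nor the sex of the mice. Both were bone marrow-derived macrophages grown with M-CSF for 5 days and then exposed for 6 h to IFNγ (20 ng/ml) and LPS (100 ng/ml), and both received mCD47.ex, a reagent that the labels do not describe further. SIRPα is a receptor that restrains myeloid cells when it binds CD47. The macrophages of 5 mice per genotype were combined before RNA was isolated, which leaves 1 library per group, no replicate error and no p-value.

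An aminoacyl-tRNA synthetase joins an amino acid to its tRNA, which delivers it to the ribosome. Cytosolic and mitochondrial translation mostly use enzymes from separate nuclear genes, although Kars and Gars are known to supply both compartments. When charged tRNA runs short, the kinase GCN2 (gene Eif2ak4) phosphorylates the initiation factor eIF2α. The same phosphorylation follows other stresses through related kinases, and it favours translation of the transcription factor ATF4. ATF4, paired with C/EBP proteins, is known to raise transcription of many cytosolic synthetases, of Asns, of the serine pathway, and of Chac1 and Trib3, through a composite C/EBP-ATF element.

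Levels are in FPKM, which counts fragments relative to transcript length and library size, so genes can be compared per length. A ratio is SIRPα-KO over WT on the scale log2(FPKM + 1), which understates differences of low genes. A gene was kept when it reached 1 FPKM in at least 1 library, and it is called higher or lower when that ratio passed 2-fold. Of 10092 genes kept, 346 (3.43%) were called higher in SIRPα-KO and 434 (4.3%) lower, with a median ratio of 0.06. Sirpa itself was at 153.87 FPKM in the WT library and 71.47 FPKM in the SIRPα-KO library, so its transcript was lower but still present under the knockout label. How the gene was disrupted is not said in the labels, so these values do not show whether the remaining transcript is intact. Both libraries held about the same number of reads, estimated at 11100000 in WT and 10950000 in SIRPα-KO. A transcript of 2 kb covered by 10 reads would then be listed at 0.45 (WT) or 0.457 FPKM (SIRPα-KO).

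All 9 macrophage markers found were present, from 177 to 7110 FPKM in WT and from 110 to 7210 FPKM in SIRPα-KO, and 1 was called lower. Neutrophil markers summed to 423 FPKM in the WT library and 194 FPKM in the SIRPα-KO library, with 5 of 8 kept markers called lower and Retnlg at 0 in SIRPα-KO. Dendritic cell markers summed to 43 and 45.7 FPKM, with 2 of 5 kept markers called higher, 1 called lower and Cd209a at 0 in SIRPα-KO. B cell markers summed to 5.91 and 2.47 FPKM, T and NK cell markers to 8.44 and 9.82 FPKM, and mast cell and basophil markers to 23.5 and 26.4 FPKM. Among the T and NK cell markers Cd3g was at 0 in both libraries, Cd3e and Ncr1 in WT, and Klrb1c in SIRPα-KO. Stromal and endothelial markers summed to 23.5 and 30.7 FPKM, and erythroid and megakaryocyte markers to 41.8 and 154 FPKM, of which Pf4 was called higher. Ribosomal RNA rows took 0.351% of all FPKM in the WT library and 0.0381% in the other. Xist was at 47.54 and 0.91 FPKM. The Y-linked genes Ddx3y, Eif2s3y and Kdm5d were at 0 in WT and reached 1 FPKM in SIRPα-KO. These values mark the WT mice as female and the SIRPα-KO mice as male or largely male. The effects of genotype and of sex therefore cannot be told apart. The part of these differences in the synthetase results was not tested. In libraries of mixed cells, fewer cells of a type and less RNA per cell cannot be told apart.

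The promoters of several members hold letters that match a search pattern for the composite element, and these are shown. Whether a match is an element through which ATF4 acts was not tested. Many members are known ATF4 targets, so the share of members with a match is not independent of the choice of genes. The search used TGATGNAA and its reverse complement TTNCATCA, both strands, in the 250 bases before and 50 bases after a start site in RefSeq (GRCm38.p6). A promoter was held for 35 of the 43 members and not for Cars, Hars, Hars2, Lars, Nars, Rars, Vars and Wars. A match was found in 8 of these 35 (22.9%). The shares were 4.51% of 27025 genes in the promoter table and 2.83% of the 8060 genes kept in these libraries that have a promoter there. Matches lay in 5 of 13 cytosolic synthetases, 0 of 14 mitochondrial synthetases, 1 of 6 synthesis enzymes (Asns), and both Chac1 and Trib3. The stretches around the matches follow, 5′ to 3′ on the strand of the gene, with the matched bases in capitals.
Asns (chr6:7693205-7693252, minus strand): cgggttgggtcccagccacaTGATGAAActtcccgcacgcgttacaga
Aars (chr8:111033710-111033878, plus strand): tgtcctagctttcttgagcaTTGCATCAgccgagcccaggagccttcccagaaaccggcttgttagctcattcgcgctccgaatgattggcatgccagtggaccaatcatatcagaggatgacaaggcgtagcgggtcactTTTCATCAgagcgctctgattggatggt
Gars (chr6:55037951-55037998, plus strand): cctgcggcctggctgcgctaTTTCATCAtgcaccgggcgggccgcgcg
Iars (chr13:49682117-49682164, plus strand): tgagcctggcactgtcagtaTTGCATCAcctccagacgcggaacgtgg
Tars (chr15:11399646-11399693, minus strand): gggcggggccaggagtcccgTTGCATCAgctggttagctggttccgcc
Yars (chr4:129189886-129189933, plus strand): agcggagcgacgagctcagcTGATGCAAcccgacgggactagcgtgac
Chac1 (chr2:119351029-119351076, plus strand): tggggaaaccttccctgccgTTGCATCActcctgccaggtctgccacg
Trib3 (chr2:152344019-152344066, minus strand): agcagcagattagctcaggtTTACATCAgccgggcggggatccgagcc

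In Asns the match reads TGATGAAA and begins 23 bases before the start site. The Aars stretch holds 2 matches on the opposite strand, TTGCATCA beginning 112 bases before the start site and TTTCATCA beginning 9 bases after it. The Iars, Tars and Chac1 promoters have the same letters, TTGCATCA, and Yars has their reverse complement, TGATGCAA. That spelling, with C at the free position, was present in 5 members and in 1.03% of genes in the table. Gars has TTTCATCA, as the second Aars match does, and Trib3 has TTACATCA. A match describes letters in this window and does not show that a factor was bound.

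The cytosolic synthetases were mostly higher in the SIRPα-KO library, by moderate amounts. Their ratio was above 0 for 17 of 20, where 56.1% of all genes kept were above 0, and their median ratio was 0.47 against 0.06. Only Lars passed 2-fold, so 1 of 20 was called higher and 0 lower, which is near the 3.43% and 4.3% over all genes kept. At a lower limit of 1.5-fold, 7 of 20 were called higher and 0 lower, where 10.9% of all genes kept were called higher and 10.2% lower. All 20 were kept, with levels from 1.81 to 97.2 FPKM in WT and from 3.21 to 116 FPKM in SIRPα-KO. Summed over the 20 genes the level was 378 FPKM in the WT library and 477 FPKM in the SIRPα-KO library. Farsa, close to equality, is the one of these genes whose sign depended on the scaling, from -0.04 to 0.06.

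**Figure D1:**
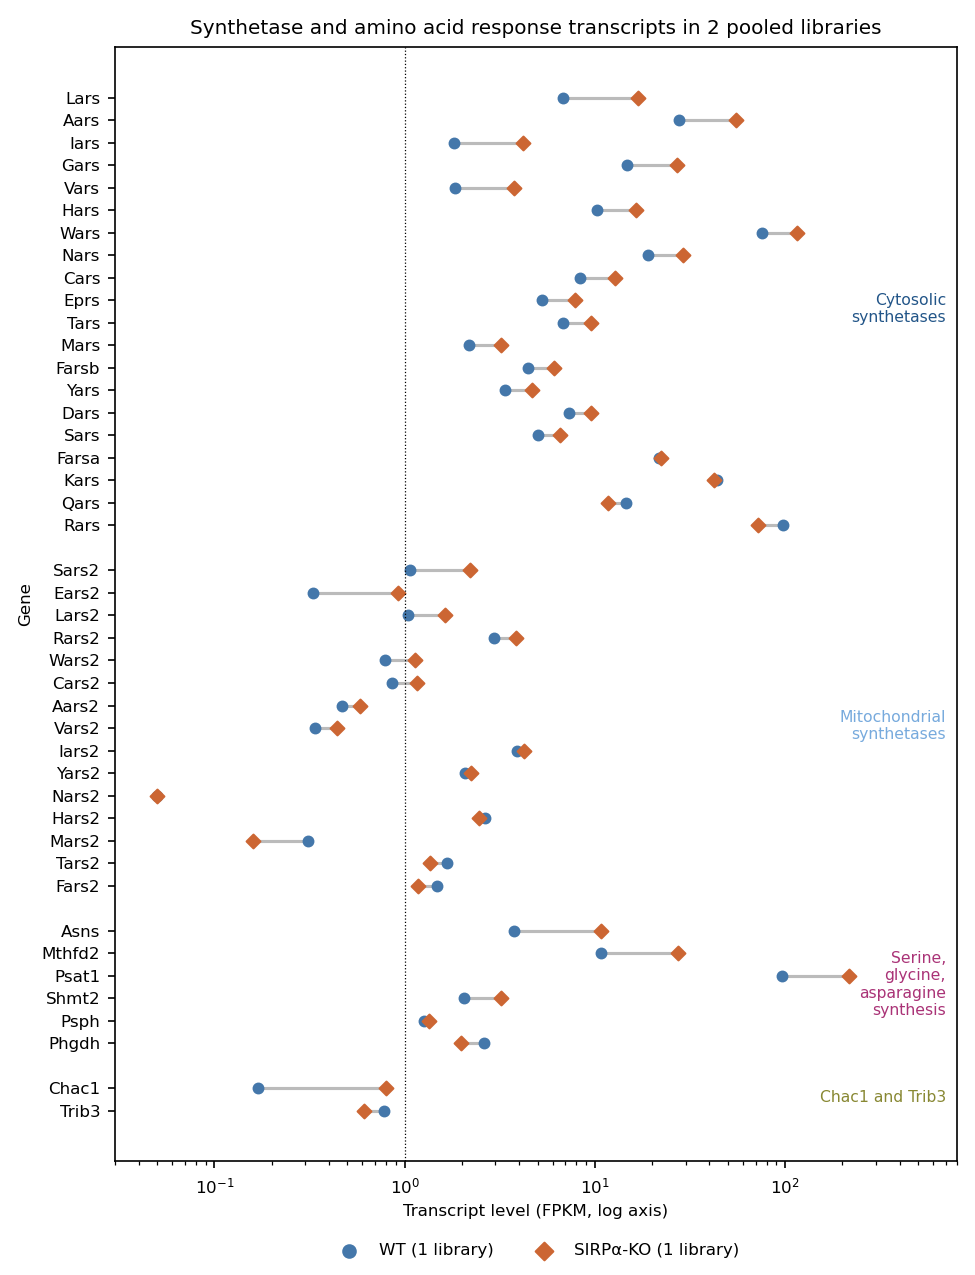
Transcript level in FPKM (log axis) of the 43 genes in the WT library (circles) and the SIRPα-KO library (diamonds), 1 library each without error bars, ordered within each list by ratio; the dotted line marks 1 FPKM. The diamonds lie right of the circles for 17 of 20 cytosolic synthetases, and Psat1 has the highest level of all in SIRPα-KO, 216 FPKM.

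Lars, which charges leucine tRNA, was at 6.78 FPKM in the WT library and 16.8 FPKM in the SIRPα-KO library, a ratio of 1.19. With a pseudocount of 5 the ratio was 0.89 and the call was lost. These levels stand for about 300 and 732 reads, whose counting error alone is 5.78% and 3.7%. Lars shared none of its 50-base words with another gene, and by level it ranked 12 of 20 in WT, tied with Tars, and 8 in SIRPα-KO. Aars, for alanine, was just short of the limit at 27.76 and 55.45 FPKM, a ratio of 0.97. Of the words of Aars 20.1% also occur in transcripts of Exosc6, so its level depends on how shared reads were assigned. Iars, for isoleucine, was the lowest of the 20 in WT at 1.81 FPKM, with 4.18 FPKM in SIRPα-KO and a ratio of 0.88. Its 2 levels stand for about 89 and 203 reads, and 8.39% of its words occur in Gm4849.

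Gars, for glycine, was at 14.83 and 27.04 FPKM, a ratio of 0.82. Vars, for valine, was at 1.83 and 3.75 FPKM, a ratio of 0.75, and Hars, for histidine, at 10.32 and 16.37 FPKM, a ratio of 0.62. The 3 enzymes for branched-chain amino acids, Lars, Iars and Vars, were thus among the 5 highest ratios, an observation made after the values were seen. Wars, for tryptophan, is known to be induced by IFNγ, and with 75.88 and 116.05 FPKM it was the most abundant synthetase transcript in SIRPα-KO. Its ratio was 0.61, below the 2-fold limit. Nars, for asparagine, was at 19.01 and 28.98 FPKM, Cars, for cysteine, at 8.33 and 12.74, and Eprs, the joined enzyme for glutamate and proline, at 5.26 and 7.83.

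The ratios from 0.33 to 0.44 belonged to Tars, Mars, Farsb, Yars, Dars and Sars, which charge threonine, methionine, phenylalanine (with Farsa), tyrosine, aspartate and serine tRNA. Farsa and Farsb encode subunits of 1 enzyme, and their levels differed in both libraries. Farsa was at 21.85 and 22.24 FPKM and Farsb at 4.46 and 6.07 FPKM, with ratios of 0.02 and 0.37.

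Rars, Qars and Kars were lower in SIRPα-KO or near equality, and all were short of 2-fold. Rars, for arginine, was the most abundant synthetase transcript in WT at 97.21 FPKM and was at 72.3 FPKM in SIRPα-KO, a ratio of -0.42. Qars, for glutamine, was at 14.49 and 11.68 FPKM, a ratio of -0.29. Kars, for lysine, was at 43.65 and 42.2 FPKM, a ratio of -0.05. None of these 3 genes shared a 50-base word with another gene.

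**Figure D2:**
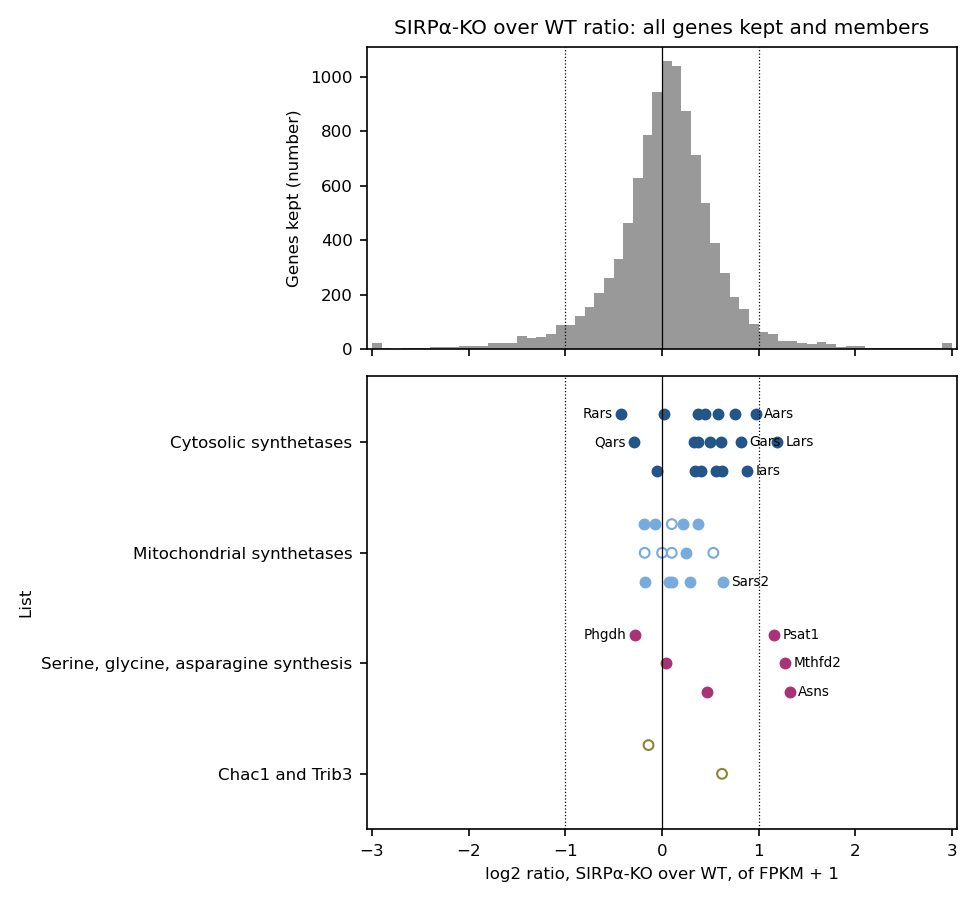
Top, number of the 10092 genes kept by log2 ratio of SIRPα-KO over WT, with values beyond 3 placed in the end bins; bottom, the ratio of each member by list, open circles being below 1 FPKM in both libraries and vertical offsets only separating points. The cytosolic synthetases centre on 0.47 and the mitochondrial ones, as kept, on 0.16, and Asns, Mthfd2, Psat1 and Lars lie beyond the dotted 2-fold line.

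Rars, Qars and Kars belong to the multi-tRNA synthetase complex, an assembly of synthetases held together by scaffold proteins. The 8 cytosolic members bound in it had ratios from -0.42 (Rars) to 1.19 (Lars), with a median of 0.37 and 5 of 8 above 0. The 12 outside it had a median of 0.57 and all 12 were above 0, except that Farsa was at -0.04 with median-of-ratios and trimmed-mean scaling. The 12 cytosolic synthetases listed as responsive to ATF4 had a median of 0.57, with all 12 above 0, and the remaining 8 had a median of 0.18, with 5 above 0. Summed, the listed 12 were at 177 FPKM in the WT library and 293 FPKM in the SIRPα-KO library, and the remaining 8 at 201 and 184 FPKM. The 5 cytosolic synthetases with a match to the composite element (Aars, Iars, Gars, Tars and Yars) had a median ratio of 0.82. The median was 0.34 for the 8 with a promoter and no match, and 0.61 for the 7 without a promoter entry. These splits overlap, rest on few genes and use the ratios on which the group was selected. The lists were also chosen with earlier results known. Nothing is read from the splits, and a role of ATF4 was not tested.

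The mitochondrial synthetases were low in both libraries, and their median ratio was small on the log2(FPKM + 1) scale, which understates differences of low genes. Their levels ranged from 0.05 to 3.91 FPKM in WT and from 0.05 to 4.26 FPKM in SIRPα-KO, with medians of 1.04 and 1.17 FPKM, where the cytosolic medians were 7.81 and 12.2 FPKM. Of 15 genes 10 were kept, and 0 were called in either direction, beside 3.43% higher and 4.3% lower over all genes kept. In a list this short, a count of 0 is near those shares. The median ratio was 0.10 over all 15 and 0.16 over the 10 kept, against 0.06 over all genes kept. Of the 10 kept, 7 had a ratio above 0, where 56.1% of all genes kept did. With a pseudocount of 0.1 the median of the 10 was 0.25, against 0.07 over all genes kept. Sars2, for serine, had the highest ratio of the list at 0.63, from 1.07 and 2.21 FPKM, which stand for about 22 and 45 reads.

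Lars2, for leucine, was at 1.04 and 1.64 FPKM and Rars2, for arginine, at 2.94 and 3.83 FPKM, ratios of 0.37 and 0.29. At the low end Fars2, for phenylalanine, was at 1.48 and 1.17 FPKM and Tars2, for threonine, at 1.68 and 1.36 FPKM, ratios of -0.19 and -0.18. Hars2, for histidine, had a ratio of -0.07. Iars2, for isoleucine, was the most abundant of the list at 3.91 and 4.26 FPKM, but 31% of its words occur in other genes, mainly Rab3gap2. Yars2, Wars2 and Cars2 had ratios of 0.07, 0.25 and 0.22. The 5 genes below 1 FPKM in both libraries were Aars2, Ears2, Mars2, Nars2 and Vars2. Ears2, at 0.33 and 0.92 FPKM, had a ratio of 0.53 and rests on about 7 and 21 reads, with a counting error of 36.5% and 22%. Mars2, at 0.31 and 0.16 FPKM, had a ratio of -0.18, from about 10 and 5 reads. Nars2 was at 0.05 FPKM in both libraries, about 2 reads each, and a difference in it was not detectable at this depth.

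Each mitochondrial enzyme was set beside the cytosolic one for the same amino acid, with Eprs as partner of Ears2 and Farsa as partner of Fars2. In 14 of 15 pairs the cytosolic transcript had the higher level per length in both libraries. The median of the pairs was 7.06 times the mitochondrial level in WT and 10.2 times in SIRPα-KO. The exception was isoleucine, where Iars was at 0.463 times the level of Iars2 in WT and 0.981 times in SIRPα-KO. The ratio between the libraries was larger for the cytosolic enzyme in 12 of 15 pairs, and in 8 of the 10 whose mitochondrial member was kept. The median difference within all 15 pairs was 0.58 on the log2 scale, including the 5 whose mitochondrial member was below 1 FPKM in both libraries. It equals the value of the Mars and Nars pairs, where Mars2 rests on about 10 and 5 reads and Nars2 on about 2 each. The difference between the list medians was 0.31 and used only the 10 mitochondrial genes kept. Those values therefore rest on different genes. With no filter, over all 15 mitochondrial genes, the difference between the list medians was 0.36.

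With the pseudocount of 1, the pairs with the largest difference were Aars and Aars2 (0.87), Lars and Lars2 (0.82) and Iars and Iars2 (0.78). Aars2 was below 1 FPKM in both libraries, with about 17 and 21 reads. The 3 pairs that went the other way were Rars and Rars2 (-0.72), Sars and Sars2 (-0.31) and Eprs and Ears2 (-0.03). The pseudocount compresses ratios of the low mitochondrial genes more than those of the cytosolic ones. The order of the pairs therefore depends on it. Without a pseudocount, SIRPα-KO over WT was 1.49-fold for Eprs and 2.79-fold for Ears2. It was 1.47-fold for Mars and 0.516-fold for Mars2. Both of these mitochondrial genes rest on few reads. With a pseudocount of 0.1 the difference between the list medians was 0.30, over kept genes only, and the pairs were not recomputed.

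**Figure D3:**
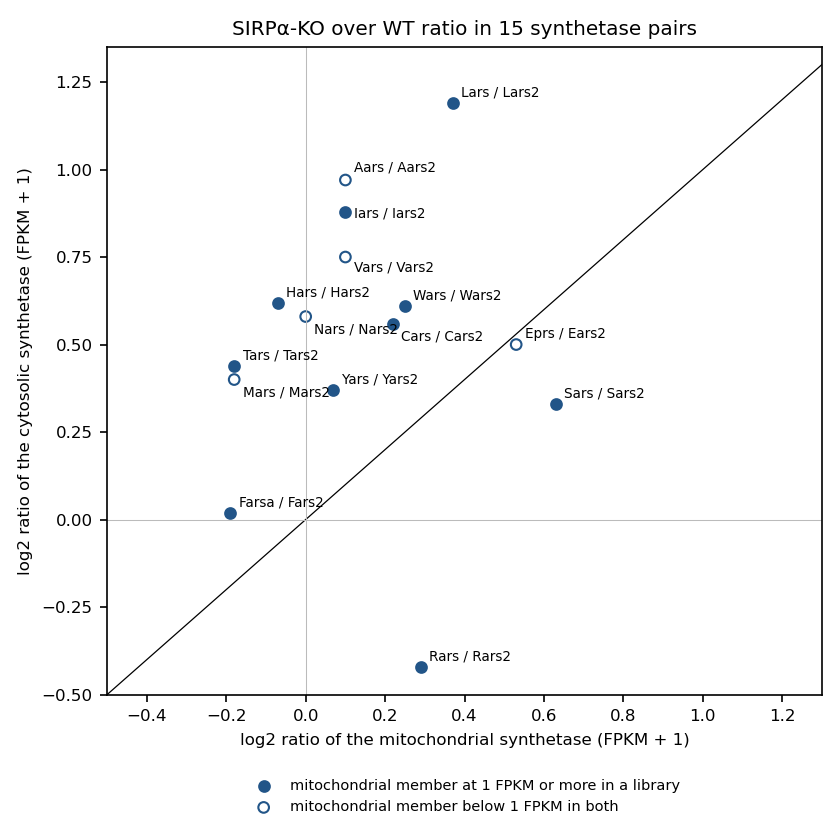
Log2 ratio of SIRPα-KO over WT for the cytosolic synthetase (vertical axis) against the mitochondrial synthetase for the same amino acid (horizontal axis), 1 point per pair; the diagonal marks equal ratios and open circles mark pairs whose mitochondrial member is below 1 FPKM in both libraries. Of 15 pairs 12 lie above the diagonal, and Rars with Rars2 lies farthest below it.

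Of the 6 synthesis enzymes 3 were called higher in the SIRPα-KO library and 0 lower, beside 3.43% and 4.3% of all genes kept, and the median ratio was 0.81. The group was selected on this ratio, so nothing is read from that count. Asns, which makes asparagine from aspartate and glutamine, was at 3.74 FPKM in the WT library and 10.83 FPKM in the SIRPα-KO library, a ratio of 1.32, the highest of the 43 genes with the pseudocount of 1. With a pseudocount of 5 it was 0.86, no longer called and below Psat1 (1.13), Mthfd2 (1.04), Lars (0.89) and Aars (0.88). These levels stand for about 83 and 237 reads. Mthfd2, a mitochondrial enzyme of folate one-carbon metabolism, was at 10.77 and 27.39 FPKM, a ratio of 1.27. Psat1, the aminotransferase of the serine pathway, was at 96.21 and 215.8 FPKM, a ratio of 1.16. Asns and Mthfd2 shared no word with another gene and Psat1 shared 1.05%.

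The other enzymes of the serine pathway were low, and none of them was called. Phgdh, which starts the pathway, was at 2.61 FPKM in the WT library and 1.97 FPKM in the SIRPα-KO library, a ratio of -0.28. Its value is uncertain, since 61.3% of its words occur in other genes and 49.2% in Gm7901 alone. Psph, the last step to serine, was at 1.27 and 1.34 FPKM, a ratio of 0.04, and shares 20.8% of its words with Cct6a. Shmt2, which converts serine to glycine in mitochondria, was at 2.05 and 3.2 FPKM, a ratio of 0.46. Within the pathway, Psat1 therefore stood far above Phgdh and Psph in level in both libraries.

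Chac1, a glutathione-degrading enzyme, and Trib3, a pseudokinase, are commonly used as readouts of ATF4 activity, and both were below 1 FPKM in both libraries. Chac1 was at 0.17 and 0.8 FPKM, about 3 and 14 reads. Trib3 was at 0.78 and 0.61 FPKM, about 18 and 14 reads. Neither value allows a call.

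Other genes of the pathway were taken as 4 lists. Among regulators of the integrated stress response, 0 of 17 kept genes were called higher and 1 lower, with a median of 0.09. These counts stand beside 3.43% higher and 4.3% lower over all genes kept, and are near those shares. Ppp1r15a, which directs the phosphatase of eIF2α, had the highest ratio of the list at 0.88, from 42.99 and 79.84 FPKM. Atf4 was at 51.17 and 89.17 FPKM, a ratio of 0.79, short of 2-fold. The lower gene was Cebpb, whose protein can pair with ATF4, at 126.18 and 41.66 FPKM, a ratio of -1.58. Of its words 18.1% also occur in Tmem189, so its level depends on how shared reads were assigned. Eif2ak4 was at 3.31 and 1.6 FPKM, a ratio of -0.73, and passed 2-fold with a pseudocount of 0.1. Ddit3, which encodes the stress factor CHOP, was at 13.57 and 14.56 FPKM, a ratio of 0.09, and shares 2.14% of its words with the neighbouring Mars.

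Among 15 kept genes of 27 listed as other ATF4 targets, 2 were called higher and 0 lower, beside 3.43% and 4.3% of all genes kept, with a median of 0.14. They were Slc7a1, a transporter of cationic amino acids (0.79 and 2.78 FPKM, ratio 1.08), and the transcription factor Atf5 (4.44 and 10.06 FPKM, ratio 1.02). Atf5 fell short of 2-fold with median-of-ratios scaling, where Slc7a1 kept its call. Slc7a1 was below 1 FPKM in WT, with about 63 reads there and 219 in SIRPα-KO. A pseudocount of 5 was not applied to the related lists, so whether either call depends on it is not given. Just outside the limit was Slc7a5, a transporter of large neutral amino acids, at 1.73 and 4.37 FPKM, a ratio of 0.98. It passed 2-fold with a pseudocount of 0.1. Of the partner genes of tRNA charging 0 of 7 kept were called, with a median of 0.15. Of the other folate and glycine genes 0 of 9 kept were called, with a median of -0.14. In lists this short, both counts of 0 are near the shares over all genes kept.

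**Figure D4:**
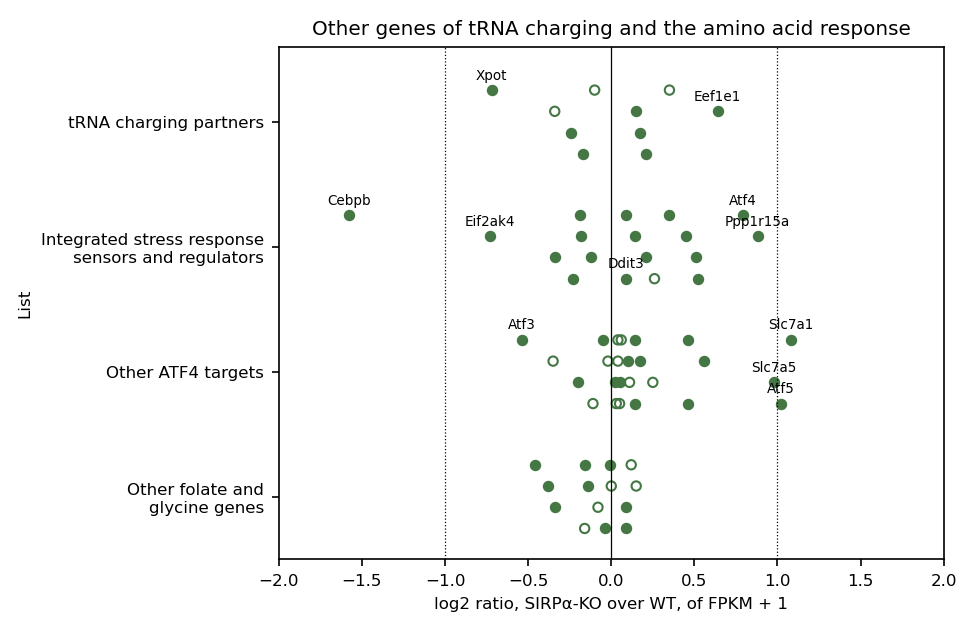
Log2 ratio of SIRPα-KO over WT for genes of 4 related lists, 1 point per gene, open circles being below 1 FPKM in both libraries and dotted lines marking 2-fold; vertical offsets only separate points. Slc7a1 and Atf5 lie just beyond the upper line, and Cebpb at -1.58 beyond the lower one.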

How the data were processed

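RNA sequencing values were available for 1 WT and 1 SIRPα-KO library, each from 5 mixed mice. The authors deposited 1 value per gene, made from reads scaled to transcript length and library size, which was taken as FPKM. The tables do not name the unit; it was inferred from steps between low values that scale with transcript length and from unequal sums (444000 in WT, 433000 in SIRPα-KO). Per the submitters' processing notes mm9, R 3.3.3 and DESeq2 were used, in roles left unsaid. The aligner, counter and strand setting were not given in the sources used here.

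Ratios were computed with Python 3.11.15 as differences of log2(FPKM + 1), keeping genes at 1 FPKM or more in a library and calling 2-fold differences. With 1 library per group no test exists. Read numbers are estimates: the depth is the one at which low values of short single-transcript genes came closest to whole reads, multiplied by GENCODE M21 transcript lengths, held for all 43 members. Counting errors cover counting only. Shared sequence is the share of 50-base words that also occur in another GENCODE gene. The functions were tested on simulated data.

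The members and lists were chosen with earlier results of these data known. All members could be named, in full those called, near the limit or among the 3 highest and lowest ratios of a list; of the related lists, called genes, Atf4, Ddit3 and Eif2ak4 were named, and genes near the 2-fold limit. Alternatives were 2 other pseudocounts, 2 other filters, 3 scalings and a 1.5-fold limit. For the 4 related lists only a pseudocount of 0.1, no filter and median-of-ratios scaling were used.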

Additional observations from a re-analysis of the deposited data

How the results depend on the processing

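With 1 library per group, no library could be left out. No paired analysis was possible because each group has 1 library and no test. A pseudocount of 0.1 gave 1265 calls over all genes, 2 cytosolic synthetases (Lars and Iars, at 1.16) and 2 stress response regulators, where the reported numbers were 780, 1 and 1. A pseudocount of 5 gave 334 calls over all genes and 0 cytosolic synthetases (Lars at 0.89, and Asns at 0.86). A limit of 1.5-fold gave 2135 calls over all genes, 7 cytosolic synthetases and 1 mitochondrial one, Sars2. Same-sum scaling gave 2 cytosolic synthetases (Aars at 1.01). Other ATF4 targets called, reported as 2, were 1 with median-of-ratios scaling and 3 with a pseudocount of 0.1, where Slc7a5 was added. The difference between the cytosolic and mitochondrial medians, 0.31, was 0.30 and 0.25 with pseudocounts of 0.1 and 5, 0.36 with no filter, 0.29 with median-of-ratios and with trimmed-mean scaling, and 0.32 with same-sum scaling. At a filter of 5 FPKM no mitochondrial synthetase was left, so it has no value there, and Chac1 and Trib3 were kept only with no filter. The search pattern with C spelled out matched in 5 member promoters. Of 235 recomputed ratios of the 36 kept members under the other pseudocounts, filters and scalings, 231 kept their side of the 2-fold limit, and none of the called genes changed sign.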

Other observations

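Synthetases fall into class I and class II by the fold of their catalytic domain. The 9 cytosolic class I genes had a median ratio of 0.56 and the 10 of class II one of 0.41, with Eprs, which joins both, left out. Across the 20 cytosolic synthetases the ratio had a Spearman correlation of 0.53 with transcript length and -0.09 with mean level, and across 9947 kept genes with a length these were 0.07 and 0.03. Genes are not independent replicates, all values share the same pair of libraries, and the lengths come from later gene models than mm9. Of the partner genes of tRNA charging, Xpot, which exports tRNA from the nucleus, was at 5.18 FPKM in the WT library and 2.76 FPKM in the SIRPα-KO library, a ratio of -0.72. Eef1e1, a scaffold of the synthetase complex, was at 5.57 and 9.24 FPKM, a ratio of 0.64. Both were named after their values were seen.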
